A study of Sus scrofa with 15 samples.

Results

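RGS5, KCNJ8 and MCAM are genes commonly read as markers of pericytes, the contractile cells that wrap capillaries. They were followed here in the backfat of 15 Iberian pigs, to see whether they rise and fall together from animal to animal, apart from the smooth muscle genes CNN1 and TAGLN, and with diet. Members were all probe sets whose platform gene symbol was exactly RGS5, KCNJ8 or MCAM. This gave 5 probe sets of 3 genes among the 3272 probe sets of the deposited table. RGS5 had 1 probe set (Ssc.8330.1.S1_at). KCNJ8 had 2, a brighter (Ssc.19258.2.A1_at) and a dimmer one (Ssc.19258.1.S1_at), as had MCAM (Ssc.10391.1.A1_at, brighter, and Ssc.10391.2.S1_at, dimmer). CNN1 (Ssc.9013.1.S1_at) and TAGLN (Ssc.11913.1.S1_at) each had 1. Unless a dimmer probe set is named, KCNJ8 and MCAM stand for the brighter one.

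All pigs were castrated males of the Iberian breed, with 1 Affymetrix array of total RNA each. The control group (7 animals) ate a standard feed and the high-oleic group (8 animals) a feed supplemented with oleic acid, with rations set so that both groups received the same energy and protein. Treatment started at 28 kg of live weight, lasted 24 weeks and ended at slaughter; ages are not stated in the labels. The tissue is labelled as the inner layer of backfat. It holds adipocytes, vessels, connective tissue and blood, so in these bulk samples fewer cells of a type and less RNA per cell cannot be told apart.

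RGS5 is a regulator of G protein signalling: it speeds the hydrolysis of GTP on G protein alpha subunits and so shortens the signal from vasoactive receptors. KCNJ8 forms the pore of the ATP-sensitive potassium channel of mural cells, whose opening hyperpolarises the cell and relaxes the vessel. MCAM is an adhesion molecule of the immunoglobulin superfamily found on pericytes, smooth muscle and endothelium. CNN1 (calponin) and TAGLN (transgelin) are actin-binding proteins of the contractile apparatus, high in arterial smooth muscle and low in capillary pericytes.

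A few facts of the whole table bear on these genes. Median log2 signals of the arrays lay between 6.38 and 6.67, and pairs of arrays correlated at 0.759 to 0.958. As the labelled tissue calls for, the adipocyte gene LEP, which encodes a satiety hormone, was bright. Its mean log2 signal was 11.20 in control and 11.82 in high-oleic animals. Of 14 listed adipocyte genes, 3 were in the table. The table held only probe sets that vary: in every row the third-largest deviation from the row median was at least 0.585 on the log2 scale, and for the 5 members it was 0.62 to 0.83. Control animals 1 and 6 stood apart from the other 13 in CNN1 and TAGLN, so the main relations with these genes are given with and without them. Live weight at slaughter was 117.2 ± 7.32 kg (SD, n = 7) in control and 109.2 ± 3.52 kg (SD, n = 8) in high-oleic animals, a difference of -8.03 kg (exact permutation test, two-sided, p = 0.00435). The labels name no array batch, and 1 array per animal leaves technical spread unmeasured.

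In the control group the log2 signal of RGS5, the G protein regulator, ran from 10.13 in animal 2 through a median of 10.54 to 11.34 in animal 7, with animal 1 at 11.30. In the high-oleic group it ran from 9.16 in animal 2 through a median of 10.52 to 11.06 in animal 4. The groups overlapped from 10.13 to 11.06, and the single low value of high-oleic animal 2 set the bottom of the scale, the next lowest animal of its group being at 10.33.

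KCNJ8, the channel pore gene, had a log2 signal between 5.94 in animal 2 and 7.56 in animal 4 among controls, with a median of 6.97. In the high-oleic group it lay between 6.35 in animal 5 and 7.41 in animal 2, with a median of 6.93. Control animals 2 and 5, at 5.94 and 6.09, were the lowest of all 15. Next above them came high-oleic animals 5, 8, 1 and 3, at 6.35 to 6.83. The remaining controls lay at 6.93 to 7.56, a range shared with the remaining high-oleic animals. The dimmer KCNJ8 probe set, at 2.70 to 3.96 in controls (median 3.35) and 3.05 to 4.24 in high-oleic animals (median 3.51), also had control animals 5 and 2 at its bottom.

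MCAM, the adhesion molecule, had a log2 signal of 6.35 in control animal 3 and 7.91 in control animal 4, the lowest and the highest of all 15, around a control median of 7.38. In the high-oleic group it lay between 6.62 in animal 5 and 7.85 in animal 8, with a median of 7.07. Both groups again shared 1 range, whereas 0.0307% of all probe sets had no overlap between the groups. The dimmer MCAM probe set had the same control animal at its lowest point (5.76 in animal 3; control median 6.63, highest 7.25) and high-oleic animal 8 at its highest (7.43; high-oleic median 6.31, lowest 6.13).

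CNN1 looked different. Its log2 signal was 10.24 and 9.87 in control animals 1 and 6, and between 5.20 and 7.00 in the other 5 controls. High-oleic animals lay between 5.38 and 7.56, with a median of 6.04. TAGLN was at 11.49 and 11.58 in control animals 1 and 6, at 9.43 to 10.13 in the other 5 controls, and at 9.63 to 10.76 in the high-oleic group (median 10.03). The 2 control animals that set the top of both contractile genes held no common place in RGS5 or KCNJ8. For MCAM both were in the upper part. Ranked from the highest of 15, animal 1 was number 2 for RGS5, 9 for KCNJ8 and 5 for MCAM, and animal 6 was number 13, 2 and 4. For the dimmer MCAM probe set animals 1 and 6 were numbers 6 and 3.

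**Figure D1:**
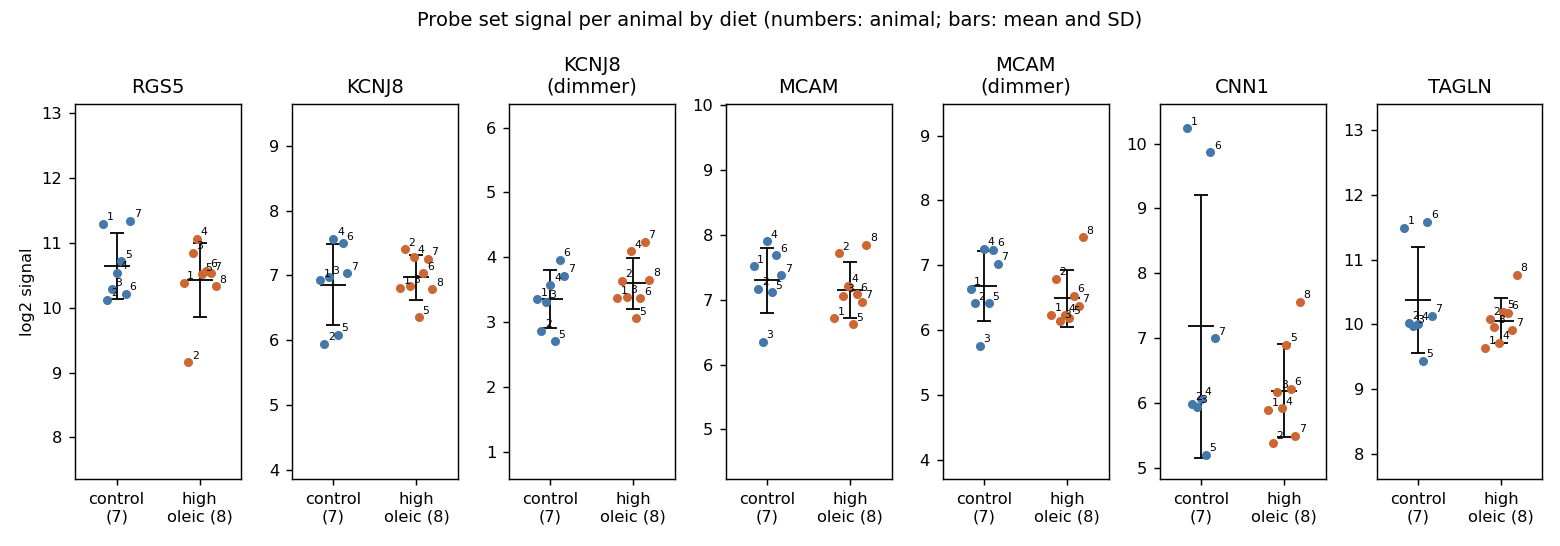
Log2 signal of each probe set of RGS5, KCNJ8, MCAM, CNN1 and TAGLN in each of the 15 animals, control (n = 7) beside high oleic (n = 8), with bars for the mean and SD of each group. The diet groups overlap for every probe set, RGS5 has 1 low high-oleic animal at 9.16, and CNN1 and TAGLN have control animals 1 and 6 far above the others.

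The members had a smaller spread than CNN1, and a smaller spread than TAGLN only while control animals 1 and 6 were counted. The SD of log2 signal over all 15 animals was 0.53 for RGS5, 0.48 for KCNJ8 and 0.46 for MCAM, against 1.51 for CNN1 and 0.62 for TAGLN. Over the other 13 it was 0.52, 0.49 and 0.47 for the members, 0.67 for CNN1 and 0.32 for TAGLN, below every member probe set. Of the 3255 probe sets tested, 44.4% had a smaller SD than RGS5, 31.7% than KCNJ8 and 23.8% than MCAM, and 98.2% had a smaller SD than CNN1. Diet accounted for 4.57% of the variance of RGS5, 1.41% of that of KCNJ8 and 2.83% of that of MCAM, so nearly all of their spread lay among animals fed alike.

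No member passed the test of diet. High-oleic minus control, the difference in log2 signal was -0.22 for RGS5 (SE 0.28, 95% interval -0.81 to 0.37), 0.11 for KCNJ8 (SE 0.27, -0.46 to 0.68) and -0.15 for MCAM (SE 0.26, -0.70 to 0.40). limma's moderated test with Benjamini-Hochberg adjustment over all 3255 probe sets gave an adjusted p of 0.999 for each, and 0 of the 5 member probe sets were called, as were 0% of all probe sets. The exact permutation test over the 6435 splits of the animals gave unadjusted two-sided p = 0.468 for RGS5, 0.675 for KCNJ8 and 0.544 for MCAM, where 4.18% of all probe sets had an exact p below 0.05 and 0 of the 5 members did. At an unadjusted limma p below 0.05, 3.93% of all probe sets and 0 of the 5 members passed. A larger moderated statistic than that of RGS5 was found in 41.1% of all probe sets, than that of KCNJ8 in 66.9%, and than that of MCAM in 55.1%.

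The dimmer probe sets gave differences of the same sign as the brighter ones. For KCNJ8 the dimmer probe set differed by 0.25 (SE 0.25, 95% interval -0.27 to 0.76), and for MCAM by -0.19 (SE 0.27, -0.75 to 0.37). MCAM stood at -0.31 to -0.05 leaving out each animal, at -0.37 among the animals of 109.5 to 118 kg and at -0.03 without control animals 1 and 6. The signs of RGS5 and KCNJ8 rested on few animals: without high-oleic animal 2 the RGS5 difference was -0.04, and among the animals of 109.5 to 118 kg (6 control, 4 high-oleic) RGS5 stood at 0.11 and KCNJ8 at -0.06. Shifts inside the 95% intervals are compatible with these values, and 1 array per animal limits the precision.

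**Figure D2:**
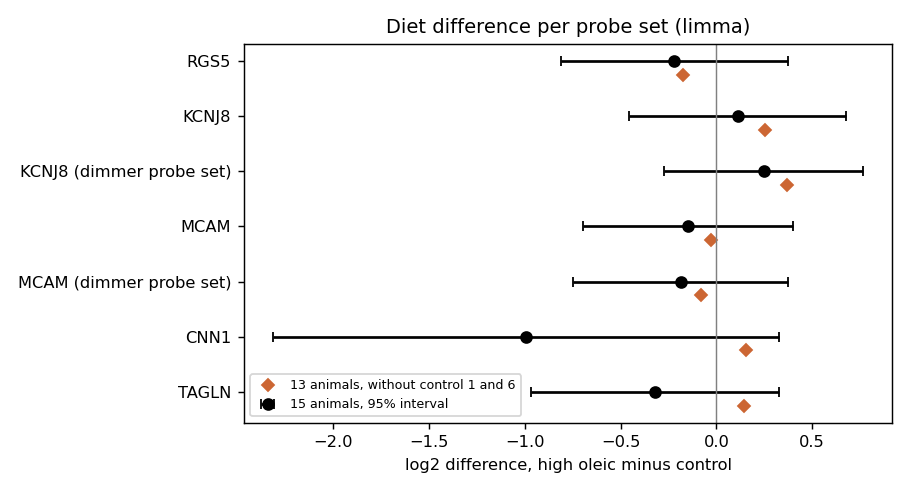
Difference in log2 signal, high-oleic minus control, for each member probe set, CNN1 and TAGLN, with 95% intervals from limma (7 control and 8 high-oleic animals). Every interval crosses 0, and those of CNN1 (-0.99, interval -2.31 to 0.33) and TAGLN (-0.32, -0.97 to 0.33) turn to 0.15 and 0.14 without control animals 1 and 6.

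CNN1 and TAGLN passed no test of diet either, and nor did the contrast of a member with them. The difference in log2 signal was -0.99 for CNN1 (SE 0.63) and -0.32 for TAGLN (SE 0.31), with an adjusted p of 0.999 in limma for both. The diet difference of RGS5 minus that of CNN1 was 0.77, and minus that of TAGLN 0.10 (exact permutation tests, p = 0.342 and 0.816). For KCNJ8 the same contrasts were 1.10 and 0.43 (exact permutation p = 0.173 and 0.224), and for MCAM 0.84 and 0.17 (exact permutation p = 0.282 and 0.575). After adjustment over the 10 contrasts the lowest p was 0.488 (exact permutation test). Without control animals 1 and 6 the contrasts with CNN1 were -0.33 for RGS5, 0.10 for KCNJ8 and -0.18 for MCAM.

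Live weight, which differed between the groups, passed no test as a predictor of the members at a given diet. The slope in log2 signal per 10 kg was 0.14 for RGS5 (SE 0.28), -0.16 for KCNJ8 (SE 0.26) and -0.05 for MCAM (SE 0.26), with limma adjusted p of 0.930, 0.921 and 0.976. No member and 0% of all probe sets passed after adjustment, and 3.81% of all passed at an unadjusted p below 0.05. Control animal 5 carried the sign for KCNJ8 and MCAM: without it their slopes were 0.64 and 0.11.

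No pair of the 3 pericyte markers passed the test of varying together over the 15 animals. RGS5 had a Pearson r of -0.08 with KCNJ8 (95% interval -0.57 to 0.45; Spearman's rho 0.03) and of -0.10 with MCAM (-0.59 to 0.43; rho -0.01). Permutation tests gave p = 0.765 and 0.915 for r and rho of the first pair, and p = 0.720 and 0.964 for those of the second. KCNJ8 and MCAM had an r of 0.42 (95% interval -0.12 to 0.77; permutation p = 0.124) and a rho of 0.43 (permutation p = 0.111). Adjusted over the 21 pairs of the 7 probe sets, the 3 values of p for r were 0.847, 0.847 and 0.372 (permutation tests with Benjamini-Hochberg adjustment). The intervals still hold moderate correlations of either sign for RGS5, and r values from slightly negative to strong for KCNJ8 with MCAM.

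The RGS5 pairs leaned on high-oleic animal 2, where RGS5 was at its lowest while KCNJ8 and MCAM each ranked number 3 from the top. Without this animal r was 0.17 with KCNJ8 and 0.16 with MCAM. Without the 2 animals farthest from the RGS5 median (high-oleic animal 2 and control animal 7), r was 0.15 and 0.12. For KCNJ8 with MCAM, leaving out control animals 2 and 5, the 2 farthest from the KCNJ8 median, gave an r of 0.56, and leaving out any 1 animal gave 0.31 to 0.51.

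Within the diet groups no pair passed either. RGS5 with KCNJ8 had an r of 0.10 in 7 control animals and -0.29 in 8 high-oleic animals (exact permutation p = 0.831 and 0.481). RGS5 with MCAM had 0.24 and -0.48 (exact permutation p = 0.628 and 0.249), and KCNJ8 with MCAM 0.45 and 0.46 (exact permutation p = 0.318 and 0.248). The dimmer MCAM probe set gave KCNJ8 an r of 0.57 in control and 0.12 in high-oleic animals, and the dimmer probe sets of both genes gave 0.64 and 0.12 (exact permutation p = 0.180, 0.764, 0.121 and 0.785 in that order). The difference between the diets in r was not tested for any pair.

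**Figure D3:**
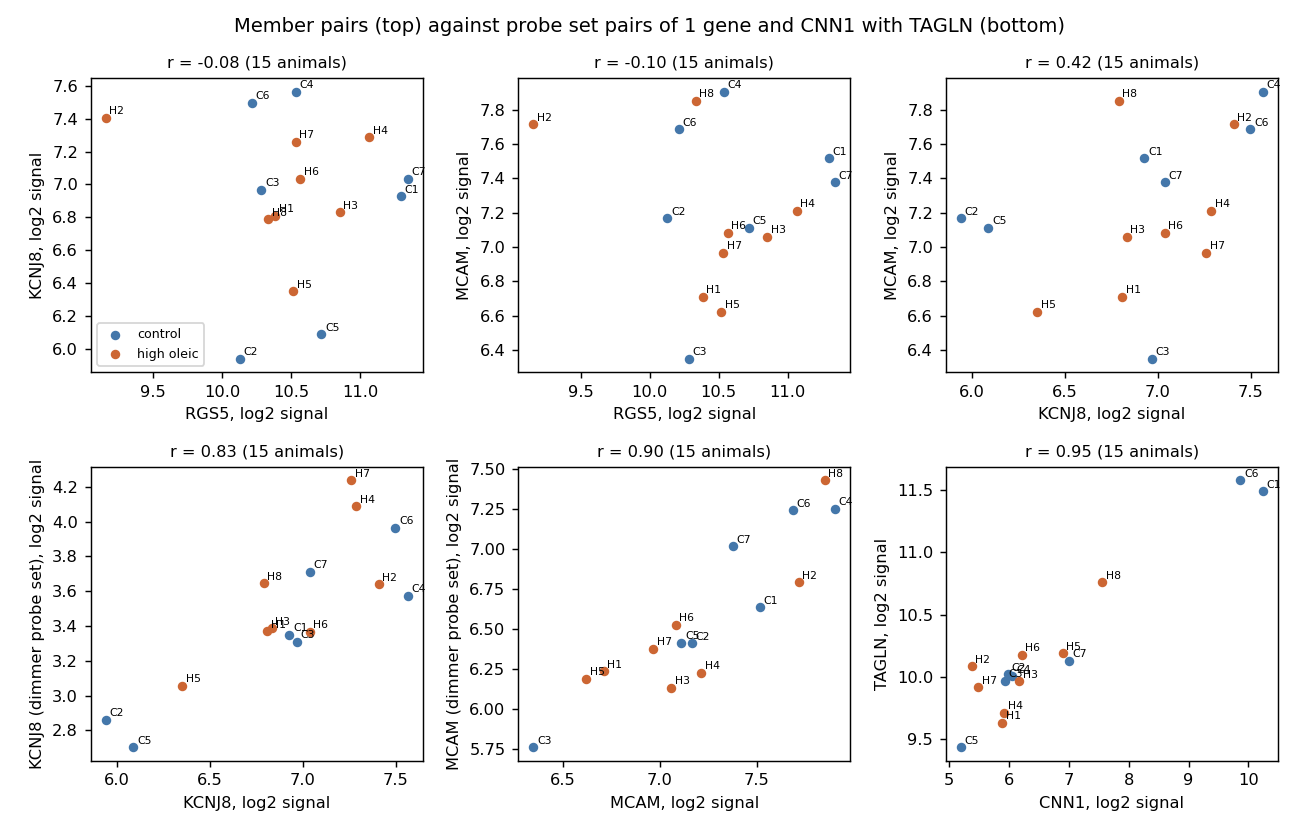
Log2 signals plotted gene against gene, 1 point per animal and coloured by diet: RGS5, KCNJ8 and MCAM against each other and the contractile pair CNN1 and TAGLN. RGS5 gives no slope with KCNJ8 or MCAM (r -0.08 and -0.10), KCNJ8 with MCAM rises loosely (0.42), and CNN1 with TAGLN has 2 control animals far from the other 13.

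Where 1 gene was read by more than 1 probe set, the readings rose and fell together, and the animals ranked more alike for MCAM than for KCNJ8. The dimmer KCNJ8 probe set had a mean log2 signal of only 3.48, with 5.25% of all probe sets below it. Control animal 4 was number 1 from the top for the brighter KCNJ8 probe set and 7 for the dimmer, and high-oleic animal 8 number 12 and 5. The 2 probe sets of MCAM had an r of 0.90 (95% interval 0.73 to 0.97; rho 0.88), with a permutation p of 1e-05, the smallest that 100000 permutations can give, and an adjusted permutation p of 0.00021. Those of KCNJ8 had an r of 0.83 (0.55 to 0.94; rho 0.71), with a permutation p of 0.00014 and an adjusted permutation p of 0.00098. MCAM held 0.94 in control and 0.85 in high-oleic animals (exact permutation p = 0.00278 and 0.00593), and KCNJ8 0.91 and 0.77 (exact permutation p = 0.0103 and 0.0277). Without control animals 2 and 5, where KCNJ8 was lowest, the KCNJ8 value fell to 0.68 with an adjusted permutation p of 0.0726; without control animals 3 and 4 the MCAM value was 0.85. Of all probe sets, 0.0307% had as high an r with the brighter MCAM probe set as its own partner did, and 0.0615% with the brighter KCNJ8 probe set.

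The closeness of a gene to its own second probe set was compared with its closeness to the other markers. For MCAM the r with its own dimmer probe set exceeded that with RGS5 by 1.01 and that with KCNJ8 by 0.49 (exact tests over every exchange of the 2 partners within animals, adjusted over 10 contrasts, p = 0.0107 and 0.0345). For KCNJ8 the excess was 0.91 over RGS5 and 0.41 over MCAM (adjusted exact p = 0.0083 and 0.0948). These contrasts were added after the correlations had been seen. Without control animals 1 and 6 the MCAM excess over KCNJ8 was 0.55, with an adjusted exact p of 0.07.

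The dimmer probe sets gave the cross-gene values again. RGS5 had an r of 0.05 with the dimmer KCNJ8 probe set and -0.09 with the dimmer MCAM probe set. KCNJ8 had 0.37 with the dimmer MCAM probe set, and the dimmer KCNJ8 probe set had 0.32 with both MCAM probe sets. All 4 KCNJ8 to MCAM values over the 15 animals were thus between 0.32 and 0.42, and none had an unadjusted permutation p below 0.124. Without the 2 animals farthest from the KCNJ8 median, KCNJ8 had 0.56 with MCAM and 0.42 with its dimmer probe set (unadjusted permutation p = 0.0460 and 0.154). By the same rule the dimmer KCNJ8 probe set had 0.54 and 0.63 (unadjusted permutation p = 0.0565 and 0.0203). None of these passed adjustment.

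**Figure D4:**
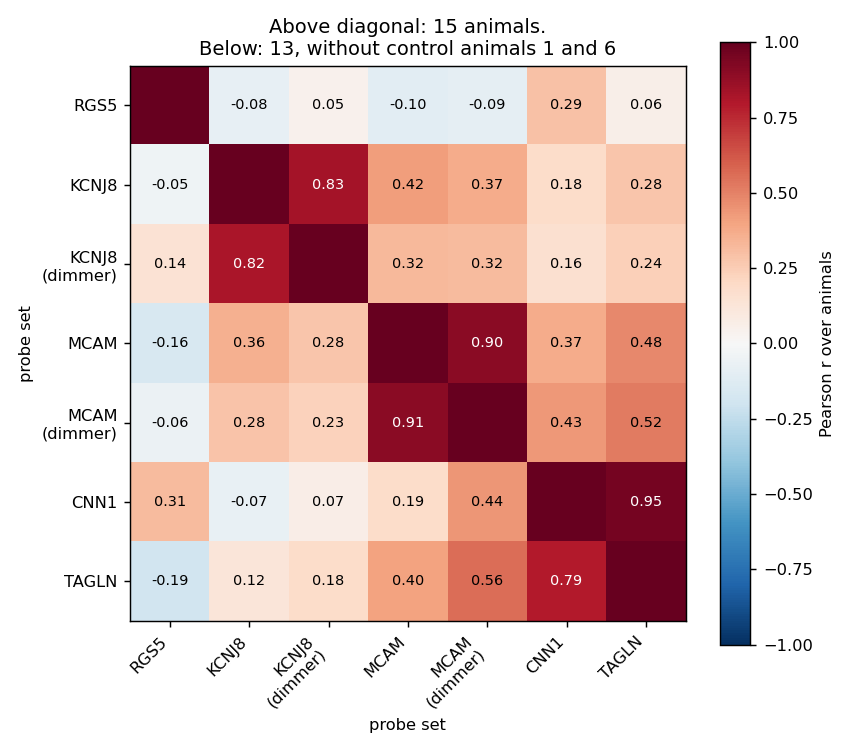
Pearson r for all 21 pairs of the 5 member probe sets, CNN1 and TAGLN. Values above the diagonal are over the 15 animals, and those below it over 13, without control animals 1 and 6. Over the 15 animals, high values lie on the pairs from 1 gene (KCNJ8 0.83, MCAM 0.90) and on CNN1 with TAGLN (0.95, resting partly on control animals 1 and 6). RGS5 is near 0 with KCNJ8 and MCAM.

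KCNJ8 to MCAM was high among probe sets in general but not at the top. An r with KCNJ8 of at least 0.42 was found in 4.0% of all probe sets, and with MCAM in 8.64%. RGS5 was in the lower part: 64.7% of all probe sets had a higher r with RGS5 than KCNJ8 did, and 66.8% than MCAM did. In limma fits of every probe set on a member's level at fixed diet, 0% of all probe sets passed after adjustment for any of the 5 member probe sets, the other members included. Even the second probe set of the same gene did not pass: that of MCAM was number 1 of 3254 by p (adjusted p = 0.651 in limma), and that of KCNJ8 number 8 (adjusted p = 0.997 in limma). At an unadjusted p below 0.05, 3.78% of all probe sets rose and 3.5% fell with RGS5, 1.2% and 1.72% with KCNJ8, and 4.3% and 2.74% with MCAM. With the dimmer probe sets the shares were 1.17% and 0.707% for KCNJ8 and 10.4% and 5.16% for MCAM. Fitted on CNN1, 0.461% of all probe sets (15) passed after adjustment, and on TAGLN 0.4% (13), none of them a member. Without control animals 1 and 6 both counts were 0.

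**Figure D5:**
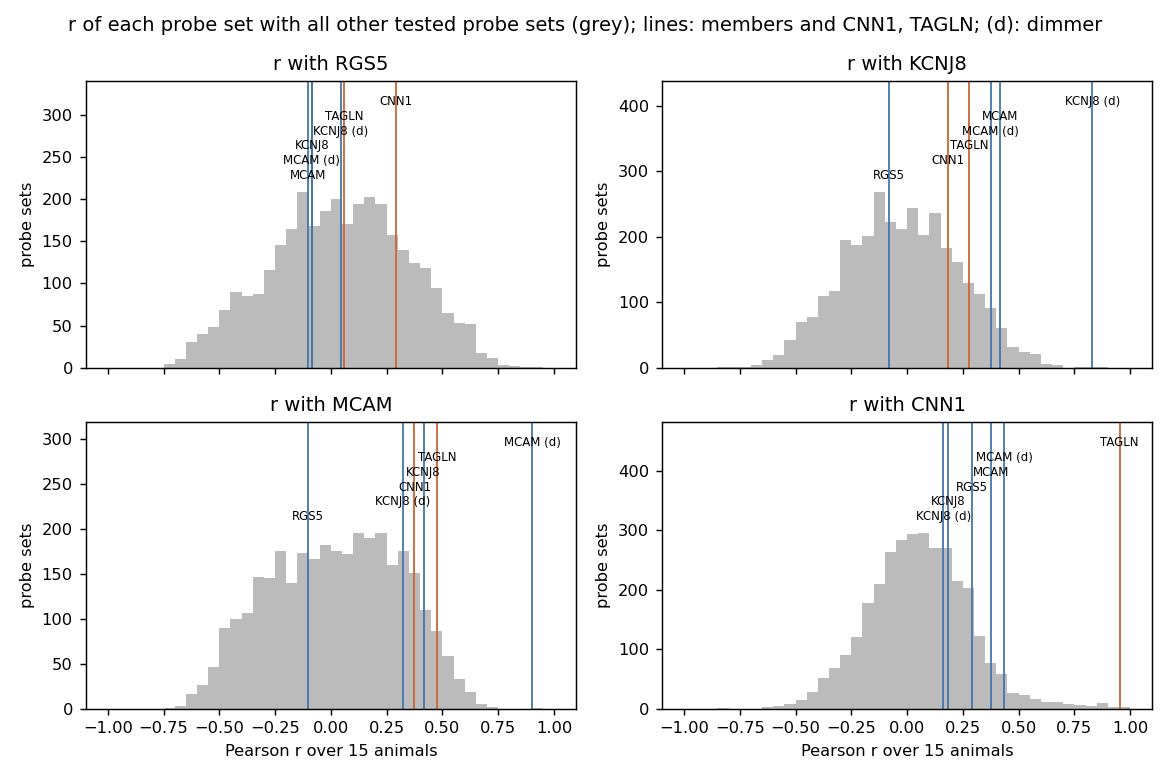
Distribution of Pearson r over 15 animals of all other probe sets with RGS5, KCNJ8 and MCAM, with the other members, CNN1 and TAGLN marked. The markers of the other pericyte genes sit near the centre for RGS5 (-0.08 and -0.10) and in the upper tail for KCNJ8 with MCAM (0.42).

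CNN1 and TAGLN, by contrast, varied together. Since control animals 1 and 6 form a separate pair, the relation was read in the other 13, where r was 0.79 (permutation p = 0.00156, adjusted permutation p = 0.0109). The value over all 15 was 0.95. No member passed the test with either gene in those 13 animals. RGS5 had an r of 0.31 with CNN1 and -0.19 with TAGLN (permutation p = 0.293 and 0.499), KCNJ8 had -0.07 and 0.12 (permutation p = 0.811 and 0.687), and MCAM had 0.19 and 0.40 (permutation p = 0.542 and 0.174). Over all 15 the same values were 0.29 and 0.06 for RGS5, 0.18 and 0.28 for KCNJ8, and 0.37 and 0.48 for MCAM.

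MCAM had the highest r of the 3 members with the contractile genes over all 15 animals. Its dimmer probe set had an r of 0.56 with TAGLN in the 13 animals (permutation p = 0.0475, adjusted permutation p = 0.249) and of 0.82 in the 8 high-oleic animals alone (exact permutation p = 0.0233), against 0.39 in the control animals (exact permutation p = 0.348). The value over 13 animals did not pass adjustment over the pairs, and the values within diets were not adjusted. KCNJ8 with CNN1 had an r of -0.73 in high-oleic animals and 0.47 in control animals (exact permutation p = 0.0411 and 0.275), the latter with control animals 1 and 6 included, and this difference was not tested.

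Whether a marker followed the other markers more closely than it followed CNN1 or TAGLN was tested on the difference between the 2 correlations. For KCNJ8, r with MCAM exceeded r with CNN1 by 0.23 and r with TAGLN by 0.14 (exact exchange tests, p = 0.430 and 0.599). For MCAM, r with KCNJ8 exceeded r with CNN1 by 0.04 and differed from r with TAGLN by -0.06 (exact p = 0.893 and 0.818). For RGS5, r with KCNJ8 less r with CNN1 was -0.37 and less r with TAGLN -0.14 (exact p = 0.480 and 0.715), and r with MCAM less r with CNN1 was -0.40 and less r with TAGLN -0.16 (exact p = 0.480 and 0.627). Of the 32 differences computed, the lowest exact p was 0.0799, for MCAM with RGS5 less MCAM with TAGLN (-0.58), and no adjusted exact p was below 0.880. The pericyte markers were not shown to lie closer to each other than to the contractile genes.

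The contractile pair was also compared with the markers, in contrasts added after the data were seen. The r of CNN1 with TAGLN exceeded that of CNN1 with RGS5 by 0.66, with KCNJ8 by 0.77 and with MCAM by 0.58 (adjusted exact exchange p = 0.0107, 0.00458 and 0.0083). In the 13 animals without controls 1 and 6 the adjusted exact p values were 0.351, 0.00977 and 0.0498, with differences of 0.48, 0.86 and 0.60, so the call over RGS5 was lost. The r of TAGLN with CNN1 exceeded that with RGS5 by 0.89, with KCNJ8 by 0.68 and with MCAM by 0.48 (adjusted exact p = 0.00458, 0.00631 and 0.0107), and in the 13 animals the adjusted exact p values were 0.0183, 0.103 and 0.115, with differences of 0.98, 0.67 and 0.39. The calls over KCNJ8 and MCAM were thus lost in the 13 animals. Having fewer animals and lacking controls 1 and 6 cannot be told apart here.

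Of a list of 28 pericyte genes, 9 were in the table: the 3 members and ANPEP, ENPEP, STEAP4, GJA4, EGFLAM and ANGPT1. Their 36 pairs had a median r of 0.21, with 25 pairs positive, and 0.26 in the 13 animals without controls 1 and 6. The median over pairs of all probe sets was 0.0158, with 51.5% positive. By the same measure 8 endothelial genes had 0.23, 8 leukocyte genes 0.27, 9 fibroblast genes 0.69 and 13 skeletal muscle genes 0.85. The 13 contractile genes had 0.78 over 15 animals and 0.08 over the 13 without controls 1 and 6, below the pericyte list there. CNN1 and TAGLN themselves kept high values in those 13 animals. Their median r with the 12 other contractile genes was 0.68 (9 positive) and 0.76 (8 positive). These medians are descriptions of pairs that share animals and carry no test.

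The other pericyte genes had their highest r with different members. ENPEP, the aminopeptidase that cleaves angiotensin, had an r of 0.61 with RGS5 (limma adjusted p = 0.637), and ANGPT1, the Tie receptor ligand that pericytes release towards endothelium, had 0.57 with RGS5. ANPEP, another membrane aminopeptidase, had 0.50 with MCAM. The highest pair of the list held no member: ANPEP with EGFLAM, a matrix protein, at 0.67. By diet, 4 of the 9 pericyte genes were higher and 5 lower in the high-oleic group, with 0 called, and the median difference was -0.15 against -0.03 over all probe sets. The 6 other genes had differences of 0.11 (ANPEP), -0.19 (ENPEP), -0.16 (STEAP4), 0.06 (GJA4), 0.30 (EGFLAM) and -0.54 (ANGPT1). The largest of these, for ANGPT1, had a 95% interval of -1.10 to 0.02 and a limma adjusted p of 0.999.

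Of the RGS family, 5 of 19 genes were measured. RGS16 had an r of 0.45 with RGS5 and RGS10, a member found in leukocytes, of -0.56. RGS2, which damps signalling through Gq-coupled receptors in smooth muscle, had 0.58 with MCAM (not passing adjustment in the limma fit) and 0.70 with the dimmer MCAM probe set. The diet differences of RGS1, RGS2, RGS10 and RGS16 were -0.08, -0.14, 0.33 and -0.19, none called. Of 22 potassium channel genes only KCNJ8 and KCNMB1, the smooth muscle subunit of the calcium-activated channel, were measured. KCNMB1 had an r of 0.98 with CNN1 and of 0.17 with KCNJ8 (0.86 and -0.14 without control animals 1 and 6). Its diet difference, with control animals 1 and 6 included, was -0.88. Neither potassium channel gene was called, and 0 had an unadjusted limma p below 0.05 for diet. On the pig genome KCNJ8 lies beside ABCC9, which encodes the regulatory subunit of the same channel. ABCC9 was on the pericyte list but not among the 9 of its genes found in the table.

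Genes of vessel signalling gave 10 measured of 35. TGFB2, a growth factor that acts on mural cells, had an r of -0.66 with KCNJ8. Of the 8 measured endothelial genes, all 8 had a positive r with MCAM (median 0.28), 7 of 8 with KCNJ8 (median 0.22) and 3 of 8 with RGS5 (median -0.09), against medians over all probe sets of 0.03, -0.03 and 0.05. The highest of them was ESAM, an endothelial junction protein, at 0.58 with KCNJ8. None of the endothelial genes passed adjustment in the limma fit on any member. Median r over the 13 contractile genes was 0.06 with RGS5, 0.14 with KCNJ8 and 0.37 with MCAM over all 15 animals. Without control animals 1 and 6 it was -0.13, -0.13 and 0.19, and 0.42 with the dimmer MCAM probe set, so the sign turned for RGS5 and KCNJ8.

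Markers of other cell types shared 1 sign of r with some members. All 13 skeletal muscle genes had a negative r with RGS5 and with KCNJ8 (medians -0.34 and -0.35). With each, 4 of the 13 fell at an unadjusted limma p below 0.05, where 3.5% and 1.72% of all probe sets fell. After adjustment 0 fell. These genes moved as a block (median r 0.85 over their 78 pairs, all 78 positive), so the counts are not 13 separate observations. With the dimmer KCNJ8 probe set the median was -0.17, with 1 of 13 positive and 0 falling, and with MCAM it was -0.07. The negative sign was not particular to the pericyte markers. With CNN1 the median was -0.31, with 0 of 13 positive and 2 falling, and with TAGLN -0.18, with 1 of 13 positive and 0 falling. The summed muscle level, the mean deviation in log2 signal over the 13 genes, was 3.11 in control animal 2, 2.70 in high-oleic animal 7 and 2.0 in control animal 5, and ran down to -2.20 in control animals and -1.70 in high-oleic animals. KCNJ8 was lowest in control animals 2 and 5 but stood at 7.26, above its group's median, in high-oleic animal 7. All 8 leukocyte genes had a positive r with MCAM (median 0.30). High-oleic animal 2, where RGS5 was lowest, had a leukocyte level of 0.58 against a median of -0.21 in the other animals of its group (range -0.65 to 0.85), with 3 of the 8 genes highest of the group there. Its erythroid level, over 3 genes, was -0.94 against -0.42 or more in the others of its group. Control animals 1 and 5 were lower still, at -0.98 and -1.05, yet ranked number 2 and 5 from the top for RGS5. The level of high-oleic animal 2 over the 9 pericyte genes, RGS5 among them, was -0.28 against -0.27 to 0.25 in the others of its group. Control animals 2 and 3 were lower, at -0.45 and -0.36. Of the 9 genes, 4 were lowest of the group in high-oleic animal 2, RGS5 included. Since the animal was picked for its low RGS5, this level is no separate sign of low pericyte genes. The part of muscle, leukocyte and red cell RNA in the levels of RGS5, KCNJ8 and MCAM was not tested.

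The genes whose pattern over the 15 animals was most like each member were taken by Pearson r, as a description and without a test, since they were chosen for it among 1260 named genes. For RGS5 these were PTGFR, the receptor of prostaglandin F, at 0.77, the efflux transporter ABCG2 at 0.75, GPBP1L1 at 0.71, the splicing factor SRSF6 at 0.70 and CACNA2D1, an auxiliary subunit of voltage-gated calcium channels, at 0.70. The lowest were HAAO, an enzyme of tryptophan breakdown, at -0.71, the hexokinase HK3 at -0.70 and PHLDA2 at -0.70. All 8 were weakest without high-oleic animal 2, where PTGFR fell to 0.49, ABCG2 to 0.40 and CACNA2D1 to 0.45.

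For KCNJ8 the highest were the complement receptor CR1 at 0.69, BLOC1S5 at 0.60, RIDA at 0.59, ESAM at 0.58 and LOC100514147 at 0.57, and the lowest the phosphatase PTPN4 at -0.74, TGFB2 at -0.66 and the muscle protein CMYA5 at -0.62. The dimmer KCNJ8 probe set gave other names: the protease ADAMTS1 at 0.73, PEG10 at 0.67, the sterol hydroxylase CYP27A1 at 0.66, the lectin CLEC1A at 0.66 and the nuclear receptor NR4A3 at 0.64, with RBBP6 at -0.74, the complement regulator CD55 at -0.63 and PATL1 at -0.57 at the low end. The 2 KCNJ8 probe sets shared 0 of their 5 highest and 0 of their 3 lowest genes.

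For MCAM the highest were NAGPA, an enzyme of lysosomal targeting, at 0.73, the complement component C4A at 0.68, the chemokine CCL2 at 0.68, the stress-induced GADD45B at 0.67 and LOC100153598 at 0.66, and the lowest RRP36 at -0.74, GMFB at -0.69 and carbonic anhydrase CA3 at -0.65. Its dimmer probe set gave NAGPA at 0.79, GADD45B at 0.77, CSRP2 at 0.74, NFIL3 at 0.71 and IER2 at 0.71, with GMFB at -0.77, CA3 at -0.76 and RRP36 at -0.72 at the low end. The 2 MCAM probe sets shared 2 of their 5 highest genes and 3 of their 3 lowest. Between different members, RGS5, KCNJ8 and MCAM, 0 of these neighbours were shared.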

How the data were processed

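The deposited values are log2 signals, which the authors made with GCOS and GCRMA per the submitters' processing notes. Which step each tool did, and in which version, is not given in the sources used here. Of its 3272 probe sets, 17 array controls were left out and 3255 tested; 1455 had 1 platform symbol, 27 several (not named) and 1773 none. Members and gene lists were chosen with earlier results of these data known. Diet was tested with limma 3.58.1 (R 4.3.3; lmFit, eBayes) over all 15 animals without covariates, with Benjamini-Hochberg adjustment at 0.05, and by exact permutation. Correlations used 100000 permutations (Python 3.11.15, numpy 2.4.6); 2 correlations of 1 gene were compared by exchanging the partners' standardised values within animals, in every possible way. The limma fits and the exchange test were tested on simulated data. Named genes were the members, CNN1, TAGLN, the 5 highest and 3 lowest by r with each member, and all measured pericyte, RGS and potassium channel genes; of other lists, those with extreme r. Alternatives were quantile normalization, median centring, a mean log2 of at least 5, array weights, an intensity trend, the animal number as a block, live weight, leaving out animals, and, added after the data were seen, leaving out control animals 1 and 6 and using the signal of 7 spiked control probe sets. Animal numbers are shared between diet groups. Same-numbered animals' deviations correlated at -0.161 to 0.296, mostly positive, and matched best in 2 of 7, without a test against chance. On these values the numbers were not taken to pair animals. The spiked signal tended to rise with the number under both feeds, though not at every step. Under the standard feed it was 5.19 at number 1 and 6.12 at number 7. With added oleic acid it was 5.25 at number 1 and 7.29 at number 8. Whether this rise links same-numbered animals was not tested.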

Additional observations from a re-analysis of the deposited data

Results flagged for a closer look

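RGS5 in high-oleic animal 2 lay far below the rest of its group, at a log2 signal of 9.16 against a median of 10.53 in the other 7 animals. Its gap to the nearest animal was 0.617 of the group's whole range, above the critical value of 0.526 for 8 animals. It was the only such value among 14 checks (7 probe sets in 2 groups), of which chance gives 0.7. In the same animal KCNJ8 was at 7.41 and MCAM at 7.72, both number 3 of 15 from the top, while 4 of the 9 measured pericyte genes, RGS5 included, were lowest of the group there.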

How the results depend on the processing

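Member diet differences stayed uncalled under every alternative run; of the signs, KCNJ8 turned to -0.020 with live weight as a covariate, RGS5 to 0.11 and KCNJ8 to -0.056 in animals of 109.5 to 118 kg, and RGS5 to 0.022 with array weights. Leaving out each animal gave KCNJ8 -0.042 to 0.23. The spiked signal as a covariate gave 1 probe set called for diet, no member. Without control animals 1 and 6 the diet difference was 0.15 for CNN1 and 0.14 for TAGLN, and the members' excess over CNN1 and TAGLN was -0.33 and -0.32 (RGS5) and -0.18 and -0.17 (MCAM); leaving out each animal gave -0.17 to 0.29 for RGS5 over TAGLN. Probe sets following CNN1 numbered 15 and TAGLN 13, with 4 to 16 and 4 to 15 leaving out each animal, 0 and 0 without control animals 1 and 6, and 21 for TAGLN with no diet term. Live weight slopes per 10 kg, leaving out each animal, were -0.33 to 0.64 and -0.23 to 0.74 for the KCNJ8 probe sets and -0.18 to 0.11 and -0.20 to 0.15 for those of MCAM. The r of RGS5 with KCNJ8 was 0.030 as rho, 0.15 without the 2 farthest animals and -0.25 to 0.17 leaving out each; with MCAM it was 0.12 and -0.20 to 0.16; with the dimmer KCNJ8 probe set -0.020 after quantile normalization and -0.072 to 0.17; with the dimmer MCAM probe set -0.22 to 0.0047. With TAGLN it was -0.0095 after quantile normalization, -0.00064 after median centring, -0.16 as rho, -0.19 without control animals 1 and 6 and -0.23 to 0.21. The KCNJ8 pair fell to 0.68 (adjusted permutation p = 0.0726) without its 2 farthest animals. KCNJ8 with CNN1 was -0.041 without the 2 farthest, -0.074 without control animals 1 and 6 and -0.012 to 0.27 leaving out each, and the dimmer KCNJ8 probe set with CNN1 -0.026 to 0.31. Of the differences between correlations, MCAM with KCNJ8 less TAGLN was 0.071 after quantile normalization and -0.25 to 0.055 leaving out each; less CNN1 -0.15 to 0.14. RGS5 with KCNJ8 less TAGLN was 0.14 without control animals 1 and 6 and -0.29 to 0.14, RGS5 with MCAM less TAGLN 0.031 and -0.27 to 0.13, KCNJ8 with RGS5 less CNN1 0.028, and KCNJ8 with MCAM less TAGLN -0.023 to 0.30. With the animal number as a replicate block, which rests on 14 animals with 7 numbers and diet removed, RGS5 with KCNJ8 was -0.65 (adjusted permutation p = 0.0306), with the dimmer KCNJ8 probe set -0.43 and with MCAM 0.040; the permutations treat deviations that share a pair as independent, and the block changed no diet call, with 0 probe sets called. The causes were not tested. The dimmer KCNJ8 probe set has no value with a mean log2 of at least 5.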
